A study of Mus musculus with 8 samples.

Results

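A CD45-negative and a CD45-positive population of primary cells sorted from explant cultures of the mouse heart were compared on 4 one-colour Agilent expression arrays, of 8 in the study. Both populations grew out of explants of the left atrial appendage, the blind sac beside the left atrium, of C57BL/6 mice 8 to 12 weeks of age, and both were sorted as positive for c-kit. The arrays titled A_1 and A_2 hold c-kit+/CD45- cells, called CD45-negative here, which came from explants digested with 0.25% trypsin. The arrays titled B_1 and B_2 hold c-kit+/CD45+ cells, called CD45-positive, whose explants were digested with 0.05% trypsin, and collagenase D was at 0.1% in both digestions. The members were chosen by these sample titles, 2 of 8 arrays for each population. The other 4 arrays, 2 of CD45-positive cells grown to passage 8 and 2 of left ventricle from mice 12 weeks of age, serve for the estimate of the spread, for the choice of each gene's probe and, in ventricle, for reference levels of Myh6 and Csf3r. The sort gate and the strength of digestion change together, so their parts in any difference cannot be told apart. The labels do not say whether replicates came from separate animals or cultures, or how many appendages were pooled, so the p-values measure the spread between these samples alone.

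The receptor kinase c-kit, encoded by Kit, marks blood progenitors and mast cells and has been used to sort candidate progenitor cells from the heart. CD45, encoded by Ptprc, is a membrane phosphatase carried by nearly all white blood cells and absent from stromal cells. Macrophages of the heart clear debris through scavenger and Fc receptors and digest it in lysosomes. Fibroblasts and other mesenchymal cells build the collagen scaffold and pull on it through actin fibres.

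Levels are log2 of the spot's processed signal minus the 75th percentile of its array, so a level of 0 is that of the 75th percentile probe, and a difference of 1 is a 2-fold difference in scaled signal. Where 4 levels are given, those of CD45-negative replicates 1 and 2 stand first and those of CD45-positive replicates 1 and 2 second. The 75th percentile itself was 521 and 426 intensity units in CD45-negative replicates 1 and 2, and 839 and 897 in CD45-positive replicates 1 and 2. In bulk samples fewer cells of a type and less RNA per cell cannot be told apart. The CD45-negative replicates differed from each other more than the CD45-positive ones. Over 18087 genes well above background on all 8 arrays, the pooled replicate SD was 0.53 in the CD45-negative pair and 0.18 in the CD45-positive pair, so most values of single genes and list medians are given for each CD45-negative replicate apart, while lower bounds and second probes pool both. Where 2 differences are given for a gene, they are those of CD45-negative replicates 1 and 2, in this order, from the CD45-positive mean. Without one CD45-negative array, a gene's estimated difference is exactly that of the other replicate from the CD45-positive mean. The fit pools 1 spread per gene over all 4 groups, and the replicate SD was 0.15 in passage 8 and 0.36 in ventricle. Where the CD45-negative replicates split, the SE and adjusted p can therefore be smaller than the spread of that pair alone would give. Tyrobp, for example, had an SD of 2.99 in the CD45-negative pair and 0.0078 in the CD45-positive pair.

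Ptprc itself followed the gate. Its level was -5.52 and -3.34 in CD45-negative and 2.04 and 1.93 in CD45-positive replicates, where the value of CD45-negative replicate 1 was not well above background. This left CD45-negative replicates 1 and 2 with 0.55% and 2.49% of the CD45-positive signal (log2 difference -6.42, SE 0.69, adjusted p = 0.0037). Both populations were gated as positive for c-kit, so the gates call for no difference in Kit. The level of Kit was -6.34 and -1.55 against -3.57 and -3.33. Despite that gate, Kit was not well above background in CD45-negative replicate 1. The groups overlapped and no difference passed (log2 difference -0.50, SE 1.44, adjusted p = 0.824). The sign of the Kit difference turned to positive with normexp background correction, with the authors' value table and without CD45-negative replicate 1.

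Of 21638 genes tested, 2431 (11.2%) were higher and 2277 (10.5%) were lower in CD45-negative cells, at a Benjamini-Hochberg adjusted p under 0.05 in limma and a difference of at least 1 log2 unit. The median difference of all genes tested was 0.17, with 0.15 in replicate 1 and 0.19 in replicate 2. Genes are tested only where well above background in both replicates of at least 1 population, so a gene at background in the other population had to differ: 486 lower genes were not well above background in either CD45-negative replicate, and 68 higher genes in either CD45-positive one. Lower genes reached further than higher ones: 444 were lower by at least 4 log2 units and 58 were higher by as much. Both CD45-negative replicates lay at least 1 log2 unit outside both CD45-positive replicates for 1826 of the 2431 higher genes and for 1837 of the 2277 lower genes. Over all genes tested, 9.1% lay so on the higher side and 9.26% on the lower side. Replicate 1 lay farther from the CD45-positive cells than replicate 2 in 62.6% of the higher and 64.2% of the lower genes. The counts depended on which arrays entered the fit. They fell when 1 CD45-positive replicate was left out and rose when 1 CD45-negative replicate was left out. Each such fit leaves 1 array in a population. Each gene is read from its brightest probe, and among 1270 called genes with several probes tested, 642 had a probe that did not pass and 28 had probes passing in opposite directions. Probes of a gene that passed the same way could also differ in size. The counts fell to 901 and 1081 when the 4 arrays were fitted alone.

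**Figure D1:**
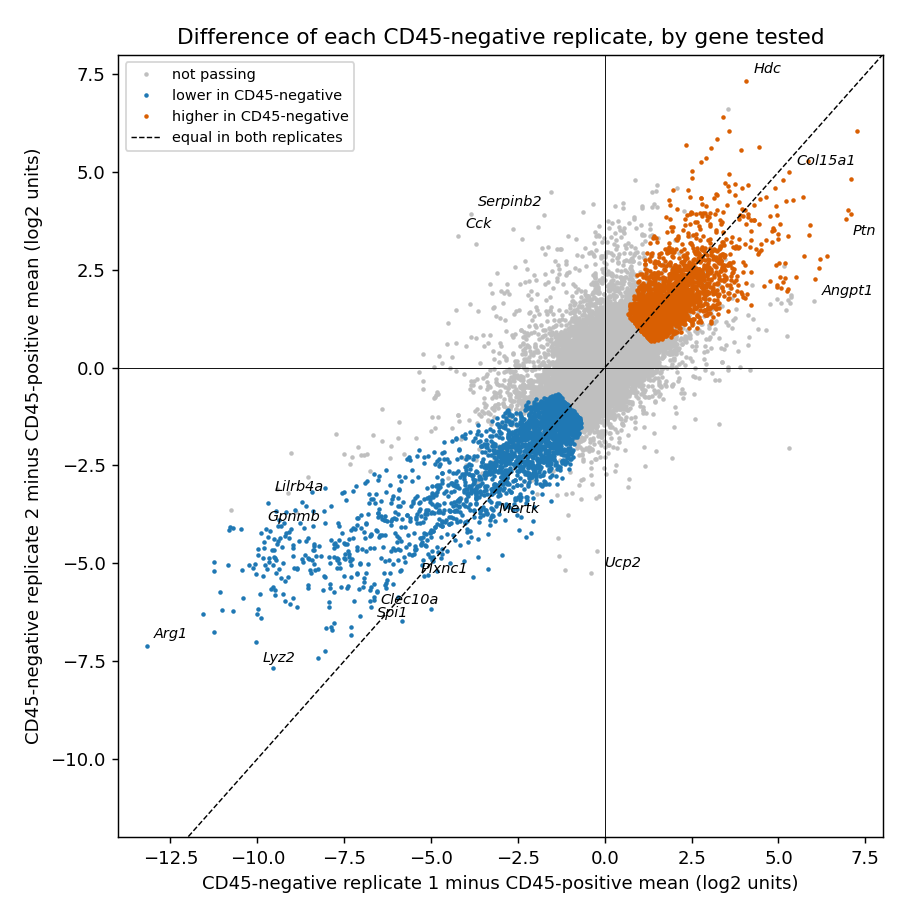
Difference from the CD45-positive mean, in log2 units, for CD45-negative replicate 1 (horizontal) and replicate 2 (vertical), 1 point for each of 21638 genes tested, coloured by whether the gene passed and in which direction. Points of leukocyte genes such as Gpnmb and Lilrb4a lie above the dashed line of equality, so replicate 2 kept more of their signal, while Spi1 and Col15a1 lie near it.

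Genes of the macrophage programme were among the furthest lower. Of 24 genes of macrophage and monocyte identity 22 were tested, and of these 19 were lower in CD45-negative cells, 1 was higher and 2 did not pass, with a median difference of -6.23, -7.68 in replicate 1 and -4.45 in replicate 2. On the CD45-negative arrays 18 of the 22 were well above background in replicate 1 and 21 in replicate 2. The pan-macrophage adhesion receptor Adgre1 (F4/80) had levels of -3.47 and 1.43 in CD45-negative and 5.99 and 5.90 in CD45-positive replicates. The mannose receptor Mrc1 had levels of -3.78 and 1.08 against 5.73 and 5.76, and the pore-forming protein gene Mpeg1 -2.07 and 2.48 against 7.36 and 7.43. The groups did not overlap for any of these, and replicate 2 lay between replicate 1 and the CD45-positive arrays. The lowest differences over all genes that were well above background on all 4 arrays were those of Lyz2, C1qa, C1qb, Alox5ap, Marco and Bst1, ranked by the replicate nearer to the CD45-positive cells. Lyz2, the lysozyme of myeloid cells, was at 0.0949% of the CD45-positive signal in replicate 1 and at 0.77% in replicate 2. The scavenger receptor Marco was at 0.516% and 2.05%, and Bst1, an ectoenzyme of the marrow stroma and myeloid cells, at 0.599% and 2.1%.

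On this list the CD45-negative replicates lay far apart. The median member kept 0.487% of the CD45-positive signal in CD45-negative replicate 1 and 4.58% in replicate 2, and 21 of the 22 genes were higher in replicate 2. Csf1r, the receptor for the growth factor that macrophages depend on, stood at 1.07 and 3.84 in CD45-negative and 7.20 and 7.19 in CD45-positive replicates. It thereby kept 1.43% and 9.74% of the signal (log2 difference -4.74, SE 0.83, adjusted p = 0.0125). Further probes of Csf1r were lower as well, by unlike amounts, with log2 differences of -7.63 and -1.61. Mertk, the receptor through which macrophages take up dying cells, was an exception in this respect, with 10.5% left in replicate 1 and 10.7% in replicate 2. Emilin2 was close to it in pattern, with 14.8% and 12.8%. Itgam, the 1 gene of the list counted as higher, rested on its probe (log2 difference 1.64, SE 0.20, adjusted p = 0.00454), while another of its probes passed in the opposite direction with -4.87, so its direction is uncertain. Timd4 and Cd163, markers of resident heart macrophages, were not well above background in both replicates of either population and were not tested.

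All 20 tested genes of Fc receptors and their signalling chain were lower, with a median of -6.50. The replicates lay far apart on this list, with a median of -8.35 in replicate 1 and -4.21 in replicate 2, so that the median member kept 0.307% and 5.45% of the CD45-positive signal. Signals from Fc receptors pass through the adaptors Fcer1g and Tyrobp to the kinase Syk and on to Vav1 and Plcg2. Tyrobp had levels of -1.94 and 2.29 in CD45-negative and 7.44 and 7.45 in CD45-positive replicates (log2 difference -7.27, SE 1.49, adjusted p = 0.0196). Fcer1g had 0.308% of the CD45-positive signal left in replicate 1 and 2.79% in replicate 2. Syk itself kept 5.95% and 8.86%, and Plcg2 3.52% and 12.5%. The low-affinity receptor gene Fcgr3 fell furthest within the list, from levels of 4.66 and 4.41 to -6.16 and -1.68. Lilrb4a, an inhibitory receptor, showed the widest split between the replicates, 0.12% against 9.15%. Paralogs within the Fc receptor, Lilr and Pir families are similar in sequence, and how far their probes share signal was not tested. Among annotated genes that were not well above background in either CD45-negative replicate, the largest bounds were those of Cd200r4 (at least 168-fold lower), Fcna (at least 81.2-fold), Pld4 (at least 81.1-fold), Otulinl (at least 70.7-fold), Themis2 (at least 64.5-fold) and Pira6 (at least 64.2-fold). These bounds set the CD45-positive mean against the higher of the probe's own level and the lowest level of a probe well above background in at least 50% of its spots, -4.71 and -4.53 on the CD45-negative arrays. Against the lowest single spot well above background, at -4.58 and -3.94, an alternative chosen after seeing the data, the bounds of these genes were 1.05 to 1.28 times smaller, and Cd200r4 was at least 131-fold lower. In CD45-negative replicate 1 the probe of Vav1 and Fcgr3 was not well above background.

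**Figure D2:**
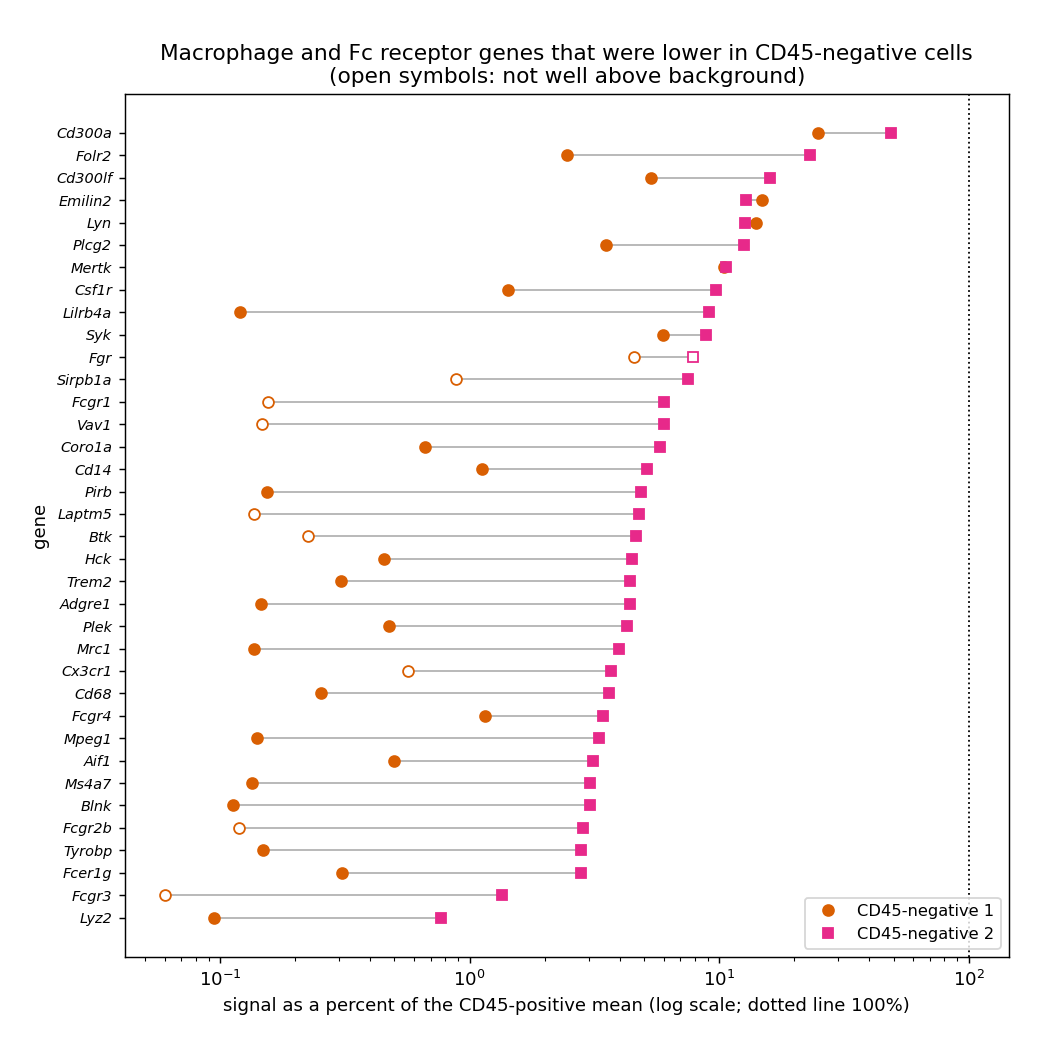
Signal in CD45-negative replicate 1 (circles) and replicate 2 (squares) as a percent of the CD45-positive mean, on a log axis, for the macrophage and Fc receptor genes that were lower, with open symbols where the probe was not well above background. Most genes lie well further left in replicate 1, while Mertk, Emilin2 and Lyn have both replicates close together.

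Of 25 transcription factors that set up the macrophage and other blood lineages 20 were tested. Of these 13 were lower and 0 higher, with a median of -3.33, -3.41 in replicate 1 and -2.51 in replicate 2. Spi1, which encodes PU.1, the factor required for macrophage development, stood at -0.06 and 0.03 in the CD45-positive replicates and was not well above background in either CD45-negative replicate, a difference of at least 24.3-fold. Irf8, a factor of the monocyte lineage, had levels of -2.30 and 0.06 in CD45-negative and 3.91 and 4.03 in CD45-positive replicates. Cebpa kept 8.45% and 8.02%, and Irf5 2.85% and 4.27%, so neither split between the replicates as the surface receptors did. Lmo2 also passed, with 0.766% and 5.84% left. Runx1, which is also active outside blood, had levels of 0.52 and 1.58 against 1.31 and 1.19 and did not pass (log2 difference -0.20, SE 0.37, adjusted p = 0.724), and Cebpb had 5.78 and 5.77 against 4.74 and 4.83 with a difference of 0.99, and did not pass.

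PU.1 binds purine-rich sites near the start of many macrophage genes, so the 250 bases upstream of each annotated gene start (RefSeq, build GRCm38.p6) were searched for the letters GAGGAAG on both strands. A gene with several annotated starts counts where any of its windows holds the letters, here and for the other motifs. The letters were present upstream of 12% of 27025 genes with such a window and of 13.2% of the 11745 genes tested that could be matched. They were present for 12.7% of 1436 higher genes, 17.2% of 1421 lower genes and 25.2% of the 310 genes lower by at least 4 log2 units. Of the 441 genes higher by at least 2 log2 units, 14.1% held them. These windows are shown because these genes, an Fc receptor, the mannose receptor, a lipid-sensing receptor and a signalling protein, were lower together and hold the letters, given in capitals. They are written 5' to 3' on the gene's strand, where CTTCCTC is the same motif on the opposite strand.
Fcgr3, chr1:171059404-171059653, minus strand: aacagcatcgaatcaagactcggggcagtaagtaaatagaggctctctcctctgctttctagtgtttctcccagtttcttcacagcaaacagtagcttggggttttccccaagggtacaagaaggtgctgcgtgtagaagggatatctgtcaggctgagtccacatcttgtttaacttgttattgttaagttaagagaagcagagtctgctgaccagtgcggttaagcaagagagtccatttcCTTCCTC
Mrc1, chr2:14229164-14229413, plus strand: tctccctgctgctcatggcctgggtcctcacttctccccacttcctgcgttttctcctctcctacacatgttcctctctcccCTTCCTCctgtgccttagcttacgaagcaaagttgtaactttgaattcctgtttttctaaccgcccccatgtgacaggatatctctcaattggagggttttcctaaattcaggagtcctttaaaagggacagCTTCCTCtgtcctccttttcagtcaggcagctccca
Trem2, chr17:48346151-48346400, plus strand: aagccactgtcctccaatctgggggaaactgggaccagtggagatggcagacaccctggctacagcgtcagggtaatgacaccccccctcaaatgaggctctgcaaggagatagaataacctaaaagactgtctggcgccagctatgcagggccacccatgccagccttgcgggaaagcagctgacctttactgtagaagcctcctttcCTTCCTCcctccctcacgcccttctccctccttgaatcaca
Vav1, chr17:57278850-57279099, plus strand: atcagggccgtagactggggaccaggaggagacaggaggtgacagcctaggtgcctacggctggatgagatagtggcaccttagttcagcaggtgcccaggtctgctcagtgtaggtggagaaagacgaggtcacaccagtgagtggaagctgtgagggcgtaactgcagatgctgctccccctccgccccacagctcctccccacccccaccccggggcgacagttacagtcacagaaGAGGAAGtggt
The first matching base lies 7 bases before the start in Fcgr3, 41 in Trem2 and 11 in Vav1, and Mrc1 holds 2 matches. Levels were -0.45 and 3.40 in CD45-negative and 7.81 and 7.99 in CD45-positive replicates for Trem2 and -4.54 and 0.81 against 4.96 and 4.78 for Vav1, so both genes were lower in each CD45-negative replicate. Of the 310 genes lower by at least 4 log2 units 78 hold the letters, so most have no match in this window. Other motifs were searched in the same way. TGTGGTT (bound by RUNX factors) was upstream of 7.1% of the 310 strongly lower and 4.04% of tested genes. TGACTCA (AP-1) was upstream of 8.06% and 4.28%, and ACATTCC (TEAD) of 4.76% of 441 genes higher by at least 2 log2 units and 3.01% of those tested. A match describes the letters and not a bound site.

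Receptors that sense microbes were lower in part. Of 20 toll-like receptor and inflammasome genes tested, 11 were lower and 0 higher. Cd14, the co-receptor for bacterial lipopolysaccharide, had levels of -1.89 and 0.30 in CD45-negative and 4.54 and 4.63 in CD45-positive replicates. Tlr2 kept 8.99% and 11.3% of the CD45-positive signal and Tlr13 0.933% and 5.1%. Casp1, the protease of the inflammasome, and its adaptor Pycard also passed, with differences of -5.01 and -4.21 for Casp1 and -3.75 and -2.88 for Pycard. The signalling adaptor Myd88, which most cell types carry, had levels of 2.19 and 1.59 against 1.93 and 2.15 and did not pass (log2 difference -0.15, SE 0.30, adjusted p = 0.734). Among C-type lectin and scavenger receptors, 12 of 19 tested were lower and 0 higher. Stab1 had levels of -1.65 and 2.71 against 5.85 and 5.99, and Clec4d -4.17 and 0.88 against 5.92 and 5.88. The CD45-positive replicates nearly coincided for both genes, while the CD45-negative replicates lay several units apart.

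Chemokines divided between the populations. Of 21 tested, 9 were lower and 5 higher. Lower genes were the inflammatory Ccl3, with levels of -4.60 and -0.15 in CD45-negative and 4.36 and 4.39 in CD45-positive replicates, and Ccl4, Ccl6, Ccl8 and Ccl12, together with Pf4, which macrophages and platelets share (1.39 and 2.77 against 7.45 and 7.40). Higher genes were Cx3cl1, Cxcl12, Cxcl5, Cxcl9 and Ccl11. Cx3cl1, a membrane-bound chemokine that tethers monocytes, had levels of 5.59 and 3.89 against 0.67 and 0.54 (log2 difference 4.14, SE 0.54, adjusted p = 0.0055). Cxcl12, which retains blood progenitors in their niche, had 6.64 and 6.55 against 4.11 and 4.08. Ccl2, the main monocyte attractant, was near 5.49 and 5.31 in CD45-negative and 6.32 and 6.37 in CD45-positive replicates and did not pass (adjusted p = 0.0548). Ccl11 was not well above background in CD45-positive cells and was at least 3.38-fold higher in the CD45-negative cells. Of 17 tested receptors for chemokines and colony-stimulating factors, 11 were lower and 0 higher. Of the chains of the GM-CSF receptor, Csf2ra kept 6.65% of the CD45-positive signal in replicate 1 and 18.1% in replicate 2, and Csf2rb 0.578% and 9.6%. For Ccl3 and Ccl4, CD45-negative replicate 1 was not well above background. For Cxcl9, CD45-positive replicate 2 was not well above background.

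The degradative and metabolic genes of phagocytes fell by smaller steps. Of 28 lysosomal genes tested, 21 were lower and 0 higher, with a median of -1.94. On the probes used, the lysosome list shows a difference in degree. Its median member kept 24.2% of the CD45-positive signal in replicate 1 and 28.5% in replicate 2. Ctsd, the lysosomal aspartic protease, had levels of 6.89 and 7.43 in CD45-negative and 9.30 and 9.10 in CD45-positive replicates (log2 difference -2.04, SE 0.25, adjusted p = 0.00472). A second Ctsd probe had 2.11 and 2.32 against 7.87 and 7.70, a log2 difference of -5.57, so the size for Ctsd depends on the probe. Hexa, which trims gangliosides, kept 13.9% and 18.2%, and Psap, the precursor of the saposins, 7.83% and 11.1%. Ctss, a protease found mainly in antigen-presenting cells, behaved like the macrophage receptors, with 0.0988% and 3.6% left. Gla, Gaa, Cd63 and Lamp2 were among the 7 that did not pass. Their differences were 0.30 and 0.95 for Gla, 0.01 and 0.38 for Gaa, -0.30 and 0.03 for Cd63 and -0.26 and -0.32 for Lamp2. For Gaa and Lamp2 a second probe was lower and passed.

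Many lysosomal genes share an E-box read by the factors TFEB and MITF, and Mitf itself was lower (0.95 and 1.85 in CD45-negative and 3.37 and 3.39 in CD45-positive replicates, log2 difference -1.98, SE 0.34, adjusted p = 0.0115). The palindrome TCACGTGA was found upstream of 1.9% of lower genes, 1.18% of higher genes and 1.61% of tested genes. Of the 310 genes lower by at least 4 log2 units 1 held it, or 0.323%. Ctsa and Ctsd are shown as lysosomal genes that were lower and hold it, in capitals.
Ctsa, chr2:164833523-164833772, plus strand: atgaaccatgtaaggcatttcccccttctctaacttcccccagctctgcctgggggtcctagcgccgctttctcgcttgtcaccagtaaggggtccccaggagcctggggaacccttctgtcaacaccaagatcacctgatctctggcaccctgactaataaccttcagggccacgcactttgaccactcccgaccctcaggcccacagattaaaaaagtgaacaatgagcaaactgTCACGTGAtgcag
Ctsd, chr7:142387828-142388077, minus strand: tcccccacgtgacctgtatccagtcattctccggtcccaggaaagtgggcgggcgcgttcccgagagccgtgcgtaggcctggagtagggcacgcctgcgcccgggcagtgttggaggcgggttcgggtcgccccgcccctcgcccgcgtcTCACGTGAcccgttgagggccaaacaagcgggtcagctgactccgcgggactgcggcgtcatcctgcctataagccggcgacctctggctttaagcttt
The match ends close to the start in Ctsa and lies 99 bases before it in Ctsd. Ctsa has 2 annotated windows, and the one not shown holds no match. On the probes used, Ctsa kept 20.5% of the CD45-positive signal in replicate 1 and 30.8% in replicate 2, and Ctsd kept 20.2% and 29.4%. A further probe of each gene was lower by more, with log2 differences of -2.98 for Ctsa and -5.57 for Ctsd.

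Of 20 genes of lipid uptake, storage and efflux, 13 were lower and 1, Pltp, was higher. The fatty acid receptor Cd36 had levels of -6.91 and -2.41 in CD45-negative and 2.86 and 2.99 in CD45-positive replicates and was at background in CD45-negative replicate 1. Fabp5, a carrier of fatty acids, kept 17.3% and 12.5%, and Apoe 21.1% and 15.6%, so these were lower to a like degree in both replicates. Gpnmb, a glycoprotein of lipid-laden macrophages, kept 0.104% in replicate 1 and 5.35% in replicate 2. Of 18 sterol-regulated cholesterol synthesis genes 2 were higher, among them Insig1, a sterol sensor, and 0 lower. The share of 11.1% higher is near the 11.2% of all genes tested. Within the CD45-negative pair, 17 of the 18 genes were higher in replicate 1, as were 11016 of all 21638 genes tested.

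The subunits of the phagocyte oxidase were lower. Its membrane subunit Cybb differed by -7.63 and -4.05 log2 units. The differences of its cytosolic subunits were -7.78 and -4.61 for Ncf1 and -8.35 and -4.65 for Ncf4, and its GTPase Rac2 had -8.50 and -5.17. Cyba, the subunit that other oxidases share, had levels of 5.63 and 5.33 in CD45-negative and 7.14 and 7.04 in CD45-positive replicates, a smaller difference (log2 difference -1.61, SE 0.22, adjusted p = 0.00651). A second Cyba probe was lower by more, with 2.20 and 1.51 against 4.98 and 4.97 (log2 difference -3.12). Arg1, which splits arginine and is induced in alternatively activated macrophages, had the widest difference of any gene in these lists, with levels of -6.74 and -0.68 against 6.48 and 6.40. It was 0.719% of the CD45-positive signal in replicate 2 and not well above background in replicate 1. Nos2, the competing enzyme of arginine use, had 0.37 and 0.54 against 0.38 and 0.21 and did not pass (adjusted p = 0.675). In all, 7 of 16 genes of this list were lower and 0 higher. Replicate 1 of the CD45-negative cells was not well above background for Cybb, Ncf1, Rac2 and Arg1.

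Genes of eicosanoid synthesis that passed were mostly lower. Of 18 genes tested, 7 were lower and 1, the prostacyclin synthase Ptgis, was higher. Alox5ap, which hands arachidonic acid to 5-lipoxygenase, had levels of -1.28 and 0.15 in CD45-negative and 5.80 and 5.80 in CD45-positive replicates, and Alox5 itself differed by -8.60 and -4.44. Tbxas1, the thromboxane synthase, had -5.60 and -0.24 against 4.11 and 4.31. Ptgis had 6.59 and 6.80 against 5.14 and 5.09, although a second probe of the gene did not pass. The cyclooxygenase genes Ptgs1 and Ptgs2 did not pass, with differences of -0.45 and 1.45 for Ptgs1 and -1.83 and -0.51 for Ptgs2. Iron handling also divided, with 5 of 16 genes (31.2%) lower and 3 (18.8%) higher, against 10.5% and 11.2% of all genes tested. The iron exporter Slc40a1 had levels of -0.51 and 0.13 against 3.23 and 3.43 and the phagosomal transporter Slc11a1 -4.21 and -0.44 against 4.81 and 5.02, both lower. Blvra, Blvrb and Slc11a2 were lower as well, while Cp (4.27 and 3.69 against 1.17 and 1.46), Steap1 and Steap2 were higher. Hmox1, which opens the haem ring, differed between the CD45-positive replicates themselves, 6.48 against 3.11, and did not pass on the probe used, while its other probe was lower and passed. For Alox5 and Tbxas1, CD45-negative replicate 1 was not well above background. For Cp, a further probe did not pass.

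Genes of antigen presentation passed only as lower, and those of complement in both directions. Of 13 dendritic cell and MHC class II genes tested, 8 were lower and 0 higher. The class II chaperone Cd74 was not well above background in CD45-negative cells and at least 31.7-fold lower, and the costimulatory gene Cd86 at least 41.0-fold lower. H2-Eb1 had levels of -2.70 and -1.83 in CD45-negative and 1.18 and 1.24 in CD45-positive replicates. H2-Ab1 had 1.10 and 3.02 against 2.83 and 2.92, with CD45-negative replicate 2 above the CD45-positive replicates, and did not pass. Of 20 complement genes, 8 were lower and 2, Cd55 and Serping1, were higher. The share of 10% higher is near the 11.2% of all genes tested. C1qa, C1qb and C1qc, which form the recognition unit of the classical pathway, kept at most 4.93% of the CD45-positive signal in any CD45-negative replicate. Their partner proteases C1ra and C1s1 did not pass, with levels of 3.46 and 2.70 against 2.24 and 2.30 and 2.25 and 2.20 against 1.69 and 1.69. C3 had 5.44 and 6.42 against 5.25 and 5.35 and did not pass (log2 difference 0.63, SE 0.34, adjusted p = 0.229), while its receptor C3ar1 differed by -10.12 and -5.11. Cd55, which shields cells from complement, had 2.00 and 1.86 against -0.13 and -0.10 (log2 difference 2.05, SE 0.20, adjusted p = 0.00301). In CD45-negative replicate 1 the probe of C3ar1 was not well above background. Another tested probe of Serping1 did not pass.

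On the other side stood the genes of mesenchymal cells. Transcription factors of mesenchymal lineages and of epithelial to mesenchymal transition were higher in 15 of 18 tested and lower in 0, with a median of 1.89, 2.08 in replicate 1 and 1.76 in replicate 2. Twist2 had levels of 1.16 and 1.32 in CD45-negative and -1.80 and -1.56 in CD45-positive replicates and Twist1 1.81 and 0.94 against -1.49 and -1.39. Sox9 had 3.01 and 2.43 against -0.21 and -0.11, and Snai2 3.67 and 1.82 against -0.21 and -0.06. The groups did not overlap for any of these 4 genes. Prrx1, a factor of limb mesenchyme, had 4.43 and 4.01 against 2.39 and 2.45 (log2 difference 1.80, SE 0.25, adjusted p = 0.00677), and Tead1, an effector of the Hippo pathway, 4.48 and 4.03 against 2.36 and 2.32. Zeb2, Osr2 and Meox1 did not pass. Zeb1 was higher (2.48 and 2.15 against 0.31 and 0.40), while Zeb2, which macrophages also express, had 2.83 and 2.93 against 2.93 and 2.96 on the probe used. A second Zeb2 probe was lower and passed, with a difference of -1.06 (adjusted p = 0.0384 by limma). For Prrx1, a further probe did not pass.

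The collagens were higher in 14 of 21 tested and lower in 0, with a median of 1.53, 1.75 in replicate 1 and 1.40 in replicate 2. Col15a1, a basement membrane collagen, differed most over all genes well above background on all 4 arrays when ranked by the nearer replicate, with levels of 1.66 and 1.33 in CD45-negative and -3.61 and -3.71 in CD45-positive replicates (log2 difference 5.15, SE 0.52, adjusted p = 0.00334). The endothelin receptor Ednra followed, with 2.21 and 1.94 against -2.41 and -2.42, and the oncofetal antigen gene Tpbg, with 1.74 and 0.38 against -4.00 and -3.94. Genes of the main fibrillar collagen passed by small differences and had high levels in both populations. Col1a1 had 7.94 and 8.38 against 7.08 and 6.87, and Col1a2 8.86 and 9.28 against 8.03 and 7.90. Col5a3 differed by 2.66 and 2.99 and Col5a1 by 2.92 and 2.07. Of 22 fibroblast surface and lineage genes, 9 were higher and 1, Alcam, was lower (-1.36 and -1.39 against 2.19 and 2.25). Fap, a protease of activated fibroblasts, had 2.92 and 2.28 against -0.37 and -0.50. Postn, a matrix protein of the same cells, differed by 2.23 and 1.38. Pi16 differed by 3.84, with 1.83 and -0.52 against -2.96 and -3.42. Thy1, a surface antigen of fibroblasts, had 7.30 and 6.96 against 4.12 and 4.26 (log2 difference 2.94, SE 0.31, adjusted p = 0.00351). The CD45-positive sample therefore held stromal transcripts at levels well above background beside the macrophage transcripts, and whether these came from the same cells was not tested.

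**Figure D3:**
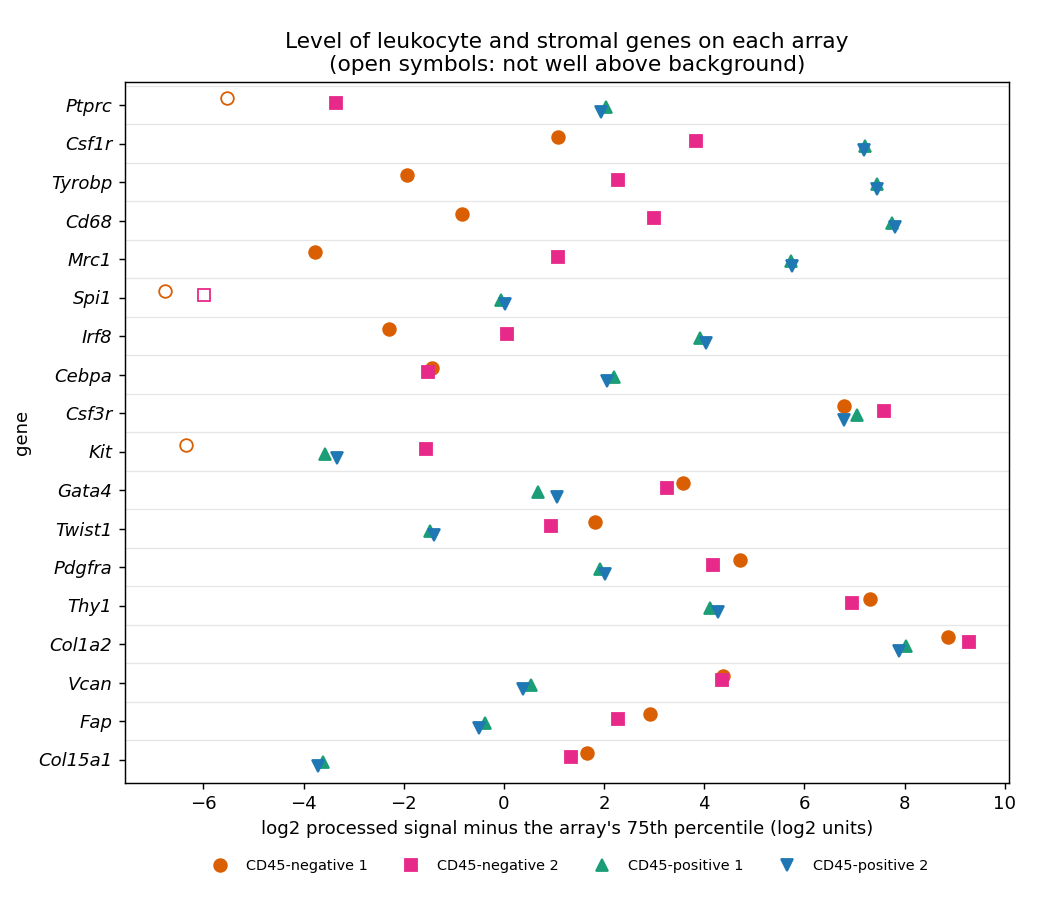
Level of 18 genes on each of the 4 arrays, as log2 processed signal minus the 75th percentile of the array, with open symbols where the probe was not well above background. The CD45-positive replicates (triangles) nearly coincide, the CD45-negative replicates split for leukocyte genes such as Mrc1 and Tyrobp, and stromal genes such as Col1a2 are well above background in both populations.

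Elastic fibre, basement membrane and matricellular genes were higher in 17 of 29 and lower in 1. Vcan, a large proteoglycan of the developing heart valves, had levels of 4.36 and 4.36 in CD45-negative and 0.54 and 0.38 in CD45-positive replicates, with the CD45-negative replicates almost equal (log2 difference 3.90, SE 0.19, adjusted p = 0.00208). Ltbp1, which stores latent TGF-beta in the matrix, had 3.65 and 2.52 against -1.68 and -1.87. Of the elastic fibre genes, Mfap2 differed by 3.20 and 3.52, Fbn1 by 2.31 and 1.99 and Fbln1 by 3.58 and 2.68. Of the laminin chains, Lamb1 differed by 2.59 and 2.34 and Lama4 by 2.94 and 1.89. Spp1, or osteopontin, a matrix protein that macrophages also secrete, was the 1 lower gene, with 3.69 and 5.14 against 8.18 and 7.98. Fn1 passed narrowly at 1.01, with 8.99 and 9.06 against 8.06 and 7.97. Collagen modification genes were higher in 9 of 16 and lower in 2, Plod1 and Tgm2. Serpinh1, the collagen chaperone of the endoplasmic reticulum, had 7.75 and 7.22 against 4.86 and 4.94, and Pcolce, which promotes procollagen cleavage, 7.98 and 7.93 against 5.73 and 5.72. Loxl1, a crosslinking oxidase, differed by 2.35 and 1.55, while the related Lox had 3.22 and 3.16 against 2.56 and 2.70 and did not pass. For Fbln1 and Loxl1, a further probe did not pass.

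Matrix proteases split by gene. Of 25 protease and inhibitor genes, 8 were higher and 5 lower. The lower ones were Mmp12, Mmp13, Mmp9, Plau and Adamts15. Mmp12, the macrophage elastase, had levels of -6.66 and -2.17 in CD45-negative and 4.67 and 4.50 in CD45-positive replicates, and Mmp9 was at least 26.6-fold lower. Higher ones included Mmp2 (3.66 and 4.22 against 2.63 and 2.77), Adamts2, which trims procollagen, and the inhibitor Timp1 (7.90 and 8.95 against 6.91 and 6.79). Mmp3 and Mmp14 did not pass, with differences of 0.38 and 0.64 for Mmp3 and -0.45 and 0.70 for Mmp14. Among leucine-rich proteoglycans and cell-surface glypicans and syndecans, 5 of 15 (33.3%) were higher and 2 (13.3%) lower. All genes tested had shares of 11.2% and 10.5%. The lower ones were Fmod (-2.90 and -3.48 against 0.26 and 0.36) and Sdc3, and the higher ones Gpc1, Gpc4, Gpc6, Sdc1 and Sdc2. Dcn, the collagen-binding decorin, had 6.97 and 7.23 against 6.61 and 6.67 and did not pass (adjusted p = 0.363). Replicate 1 of the CD45-negative cells was not well above background for Mmp12 and Mmp13. Another tested probe of Adamts2 did not pass.

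Cytoskeletal and junction genes were higher as well. Of 28 actin and contractile genes, 16 were higher and 0 lower, with a median of 1.41, 1.27 in replicate 1 and 1.39 in replicate 2. Flnc, a filamin of muscle and stressed fibroblasts, had levels of 5.03 and 5.37 in CD45-negative and 2.82 and 2.92 in CD45-positive replicates. Non-muscle myosin Myh10 had 2.02 and 1.63 against -0.28 and -0.27 (log2 difference 2.10, SE 0.22, adjusted p = 0.00341). Calponin 3 (Cnn3) differed by 2.15 and 1.81, caldesmon (Cald1) by 1.74 and 2.03 and beta-tropomyosin (Tpm2) by 2.00 and 1.90. The smooth muscle actin gene Acta2 had 6.68 and 6.45 against 4.99 and 5.06, so the groups did not overlap, but it narrowly missed the threshold (adjusted p = 0.0518), as did Tagln, with 6.69 and 6.63 against 5.03 and 5.01 (adjusted p = 0.0511). Cadherin and junction genes were higher in 11 of 17 tested and lower in 1. N-cadherin, Cdh2, had 6.22 and 6.14 against 3.83 and 3.51, and Cdh11, the cadherin of fibroblasts, 1.60 and 1.08 against -1.50 and -1.61. Of the gap junction genes, Gja1 differed by 1.89 and 1.73 and Gjc1 by 3.14 and 3.02. Pkp2, a desmosome protein, was the lower one, with -3.11 and -2.33 against 0.30 and 0.38.

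Integrin subunits passed in both directions. Of 22 tested, 6 were higher and 5 lower. The lower ones were Itgb2, the beta chain of the leukocyte integrins (-2.53 and -0.14 in CD45-negative and 4.63 and 4.86 in CD45-positive replicates), with Itgax, Itgal, Itga4 and Itgb7. The higher ones were Itga1, Itga6, Itgav, Itgb4 and Itgb8 (-3.06 and -2.32 against -5.06 and -5.64), and Itgam with the uncertainty given above. Itgb1, the subunit that most matrix receptors share, had 3.75 and 3.72 against 3.26 and 3.40 and did not pass (log2 difference 0.41, SE 0.19, adjusted p = 0.17). In CD45-negative replicate 1 the probe of Itgb7 was not well above background. For Itgb8, CD45-positive replicate 2 was not well above background. Another tested probe of Itgal, Itga1 and Itga6 did not pass.

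Receptor kinases were higher in 15 of 27 tested and lower in 2, Mertk and Ephb3. Pdgfra and Pdgfrb, the platelet-derived growth factor receptors of mesenchymal cells, had levels of 4.72 and 4.17 in CD45-negative and 1.91 and 2.03 in CD45-positive replicates and of 4.94 and 5.10 against 2.74 and 2.74. Ephb4 had 3.09 and 2.31 against -0.61 and -0.87 and Egfr 3.13 and 2.65 against 0.43 and 0.45. Within the family that binds Gas6, the members moved apart. Mertk was lower (log2 difference -3.24, SE 0.20, adjusted p = 0.00208), while Axl and Tyro3 were higher (log2 difference 1.85, SE 0.28, adjusted p = 0.00846 for Axl and log2 difference 2.50, SE 0.24, adjusted p = 0.00291 for Tyro3). Axl had 5.33 and 5.02 against 3.18 and 3.48 and Tyro3 4.12 and 4.57 against 1.91 and 1.78, although a second Tyro3 probe did not pass. Kdr, the vascular endothelial growth factor receptor, had 3.69 and 4.17 against 3.25 and 2.89 on the probe used and did not pass, while its second probe was lower and passed, with a difference of -5.19. Genes for growth factors that act on receptor kinases were higher in 8 of 27 and lower in 4. These shares were 29.6% and 14.8%, against 11.2% and 10.5% of all genes tested. The lower ones were Pdgfb (-2.66 and 0.37 against 3.72 and 3.83), Pdgfc (-1.26 and -0.61 against 2.32 and 2.49), Igf1 (2.62 and 2.34 against 5.21 and 5.19) and Gas6 (6.31 and 6.26 against 7.92 and 7.29). Ptn, a heparin-binding growth factor, had the largest fitted difference of the higher ones, with 2.92 and -0.22 against -4.01 and -4.02, and its CD45-negative replicates differed by 3.14 log2 units. Nrg1, Fgf7, Fgf1, Hgf, Vegfc, Hbegf and Angpt1 were also higher. Angpt1 had 1.25 and -2.52 against -4.64 and -4.92 (log2 difference 4.15, SE 1.13, adjusted p = 0.0437), so replicate 1 carried most of its difference. Kitl, the ligand of c-kit, had -0.94 and -0.62 against -0.94 and -1.08 and did not pass (adjusted p = 0.558). For Angpt1, CD45-positive replicate 2 was not well above background. For Igf1, a further probe did not pass.

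Wnt, Notch and hedgehog genes passed in 1 direction. Of 23 Wnt pathway genes tested 8 were higher and 0 lower, and of 14 Notch and hedgehog genes 7 were higher and 0 lower. Fzd1, a Wnt receptor, had levels of 4.63 and 4.36 in CD45-negative and 1.29 and 1.31 in CD45-positive replicates (log2 difference 3.19, SE 0.23, adjusted p = 0.00208). The non-canonical ligand Wnt5a differed by 1.88 and 1.68, Wnt5b by 2.65 and 1.97 and the receptor Ror2 by 3.25 and 2.17. Frzb, a secreted antagonist, had 4.93 and 3.41 against 1.09 and 1.34. Notch3, a receptor of mural cells, had 3.27 and 3.45 against 0.80 and 0.73. The target gene Heyl differed by 2.73 and 2.16 and Hes1, another target, by 1.96 and 1.59. Smo, the signal transducer of the hedgehog pathway, had 5.12 and 4.63 against 2.56 and 2.72 and Gli3 3.03 and 2.29 against 0.30 and 0.44. In the TGF-beta and BMP list 6 of 25 were higher and 2, Tgfb1 and Id2, were lower (24% and 8%, against 11.2% and 10.5% of all genes tested). Tgfb1 had -0.03 and 0.74 against 2.06 and 2.24, while Tgfb3 had 4.33 and 3.79 against 2.56 and 2.57, so the ligands of this family moved in opposite directions. The co-receptor Tgfbr3 differed by 3.20 and 2.56 and the activin antagonist Fst by 2.52 and 2.24, and Tgfbr2 did not pass, with 0.67 and -0.42.

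Guidance molecules first known from axons were higher in 12 of 30 (40%) and lower in 4 (13.3%). All genes tested had shares of 11.2% and 10.5%. Slit2 and its receptors Robo1 and Robo2 were higher together. Slit2 had levels of 4.18 and 3.95 in CD45-negative and 0.90 and 0.78 in CD45-positive replicates, Robo1 2.07 and 1.99 against -0.13 and -0.16 and Robo2 -1.52 and -2.67 against -4.87 and -5.02. Sema3a was higher (-0.98 and -0.79 against -3.88 and -3.76), while the semaphorin co-receptors Nrp1 and Nrp2 were lower (0.59 and -0.77 against 2.06 and 2.34 and 2.19 and 3.56 against 5.74 and 5.69). Sema7a had 1.48 and 3.96 against -1.38 and -1.19, and Plxnc1, its receptor on leukocytes, -2.59 and -1.85 against 2.82 and 2.99. The ephrins were higher, Efnb1 by 3.06 and 2.89 and Efnb2 by 2.76 and 2.76. For Robo2, CD45-positive replicate 2 was not well above background. For Nrp2, Plxnc1 and Efnb2, a further probe did not pass.

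Ligands and receptors were also set side by side. Over 43 textbook ligand and receptor pairs, picked with the values known, both partners passed in opposite directions in 12 and the same way in 10. Of the 40 ligand genes 18 were higher and 10 lower, and of 39 receptor genes tested 14 were higher and 14 lower. Over all genes tested 11.2% were higher and 10.5% lower, so the picked genes passed more often. The pair counts therefore do not measure how common such pairs are. In 7 pairs the ligand was higher in CD45-negative cells and the receptor lower, and in 5 the reverse. Il34, a second ligand of Csf1r, had levels of 1.19 and 1.01 in CD45-negative and -0.72 and -0.86 in CD45-positive replicates, opposite to Csf1r. Cx3cl1 differed by 4.98 and 3.29 and its receptor Cx3cr1 by -7.46 and -4.76. Cxcl12 differed by 2.55 and 2.46 and Cxcr4 by -7.14 and -4.02. Vcam1 differed by 1.27 and 1.38 and the integrin subunit Itga4, which binds it, by -3.95 and -3.22. The pair of Il33 with Il1rl1 rests on a dim receptor probe whose sign turned with normexp correction and with the mean over probes. In the reverse direction Pdgfb differed by -6.44 and -3.41 and Pdgfrb by 2.20 and 2.35, and Igf1 by -2.58 and -2.86 and Igf1r by 1.68 and 1.15. Pairs within the CD45-negative cells included Hgf and Met, and Nrg1 and Erbb2. Pairs within the CD45-positive cells included Ccl3 and Ccr1, and Apoe and Trem2. Transcript levels do not show whether a ligand reached its receptor. Replicate 1 of the CD45-negative cells was not well above background for Cx3cr1 and Cxcr4. Another tested probe of Vcam1 did not pass.

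**Figure D4:**
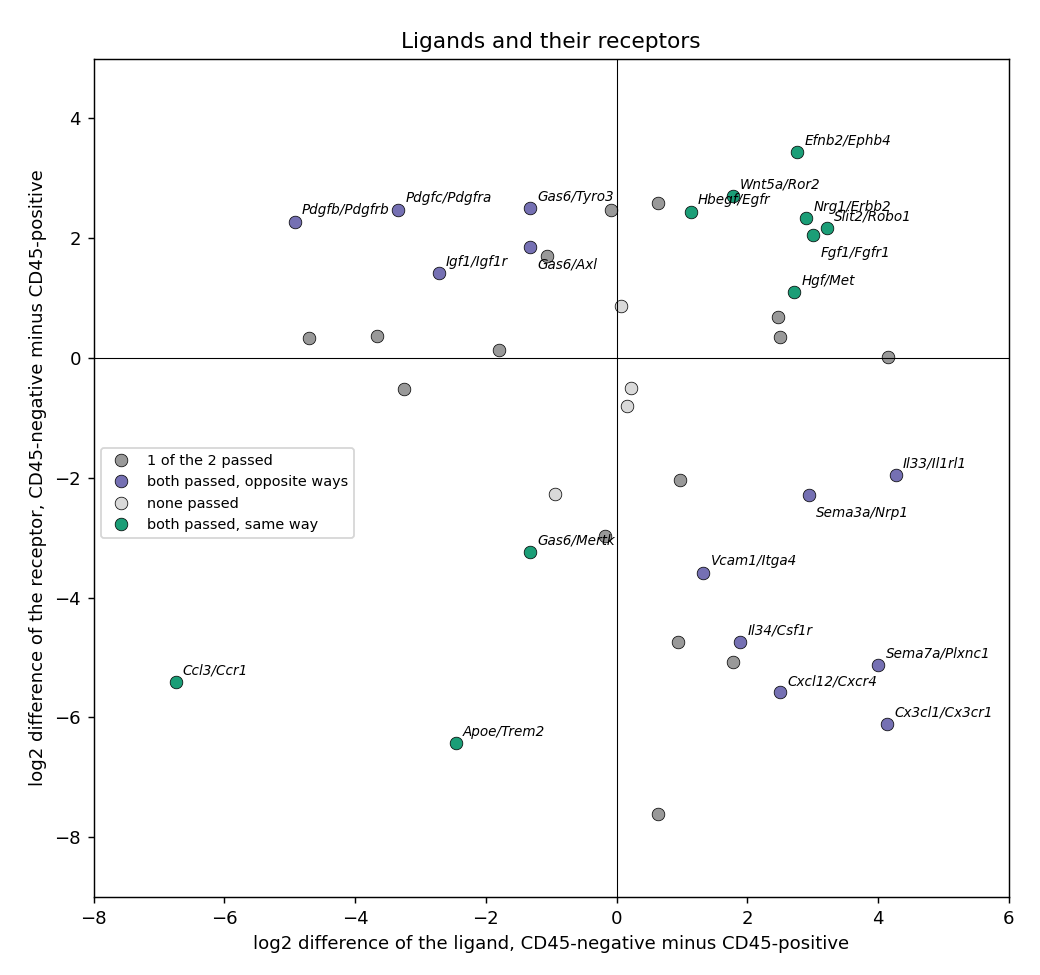
Log2 difference, CD45-negative minus CD45-positive, of the ligand (horizontal) and the receptor (vertical), 1 point for each pair with both genes tested, coloured by whether both, 1 or none passed. The 12 pairs that passed in opposite directions lie in the upper left and lower right, such as Pdgfb with Pdgfrb and Cx3cl1 with Cx3cr1.

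Cardiac transcription factors that passed were mostly higher. Of 13 cardiac transcription factors tested, 5 (38.5%) were higher and 2 (15.4%), Mef2a and Mef2c, were lower. Over all genes tested the shares were 11.2% and 10.5%. Gata4 had levels of 3.58 and 3.25 in CD45-negative and 0.68 and 1.07 in CD45-positive replicates (log2 difference 2.54, SE 0.26, adjusted p = 0.00334) and Gata6 3.31 and 2.46 against 0.54 and 0.83. Tbx20, Tbx2 and Hand2 were the other higher ones, with differences of 0.96 and 1.47 for Tbx20, 2.02 and 2.14 for Tbx2 and 2.03 and 1.61 for Hand2. Nkx2-5 and Isl1 were not well above background on both replicates of either population. None of 9 tested cardiomyocyte genes passed by limma, and Myh6, the heart's myosin, had -4.27 and -5.73 against -4.03 and -4.15 and stood at 9.72 and 9.38 in ventricle. At an unadjusted p under 0.05, 1 of the 9 differed. Pluripotency genes gave 0 calls of 11, with 2 at an unadjusted p under 0.05, and Pou5f1 and Sox2 were not well above background. For Myh6, CD45-negative replicate 2 was not well above background. For Mef2a and Tbx20, a further probe did not pass.

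Mesothelial genes, which mark the outer lining of the heart, were lower in 6 of 14 and higher in 2. Upk3b was at least 30.8-fold lower, Upk1b at least 25.7-fold lower, and Msln had levels of -1.62 and -2.50 in CD45-negative and 0.83 and 0.77 in CD45-positive replicates. Bnc1, Gpm6a and Lrrn4 were lower too. Tbx18, a factor of the epicardium, was higher (2.02 and 2.00 against 0.28 and 0.48), as was Aldh1a2, which makes retinoic acid (5.59 and 3.49 against 1.73 and 1.80). Wt1 had 1.63 and -1.22 against -0.51 and -0.63, with the CD45-negative replicates on either side of the CD45-positive ones. Smooth muscle and pericyte genes were higher in 4 of 11, Notch3, Pdgfrb, Smtn and Synpo2, while Myh11 and Rgs5 were not well above background in both replicates of either population. For Synpo2 the mean over its probes had the opposite sign. Endothelial genes gave 1 higher, Plvap, and 2 lower, Esam and Npr3, of 16, shares of 6.25% and 12.5% that are near the 11.2% and 10.5% of all genes tested. Pecam1 had -2.78 and -2.27 against -2.30 and -2.36. For Bnc1 and Gpm6a, CD45-negative replicate 2 was not well above background. Another tested probe of Plvap did not pass.

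Few mast cell genes were above background. Of 15, 6 were tested, of which Hdc was higher and Slc18a2 lower. The defining mast cell genes Cpa3, Cma1, Fcer1a and Ms4a2 were not well above background on both replicates of either population, and Mcpt4 had -4.66 and -4.73 in CD45-negative and -4.23 and -4.29 in CD45-positive replicates. Hdc, which makes histamine, had -0.90 and 2.34 against -4.86 and -5.09 (log2 difference 5.70, SE 1.03, adjusted p = 0.0135). Slc18a2 changed sign with normexp correction and with the mean over probes. Blood stem and progenitor genes were higher in 3 of 13, Meis1 and Mecom among them, and lower in 1, Tal1. These shares were 23.1% and 7.69%, against 11.2% and 10.5% of all genes tested. Meis1, also a factor of heart development, had 3.64 and 3.31 against 1.12 and 1.09, Cd34 had 4.71 and 3.15 against 3.34 and 3.35 without passing, and Myb and Slamf1 were not tested. Ly6a, which encodes Sca-1, had 2.28 and 2.85 against 1.49 and 1.65 and did not pass, with a difference of 0.99. Among neutrophil genes S100a8 was lower and Camp higher of 7, or 14.3% in each direction, near the shares of all genes tested. Csf3r, the receptor of granulocytes, gave a strong and even signal on these 4 arrays (6.79 and 7.59 against 7.05 and 6.79), ventricle included (7.10 and 6.92). Of the surface antigens used in sorting, 10 of 24 were lower and 2, Cd55 and Ly6c1, higher. Cd93 had -0.91 and 1.63 against 6.03 and 5.94 and Cd53 -4.53 and -2.12 against 3.70 and 3.45, both lower, while Cd44, Cd81, Cd9 and Cd47 did not pass, with differences of 0.41 and 0.30 for Cd44, 0.34 and -0.00 for Cd81, 0.27 and -0.33 for Cd9 and 0.12 and -0.49 for Cd47. Replicate 1 of the CD45-negative cells was not well above background for Cd53. For Slc18a2, CD45-negative replicate 2 was not well above background. For Hdc and Mecom, CD45-positive replicate 2 was not well above background.

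Lists of general cell upkeep had at most 5 called genes each, where 21.8% of all genes tested were called. None of 26 cytosolic ribosomal protein genes passed by limma, 12 of them at an unadjusted p under 0.05, and their median was 0.50, 0.69 in replicate 1 and 0.38 in replicate 2. None of 24 respiratory chain genes passed either, with 0 at an unadjusted p under 0.05 and a median of 0.03, 0.24 in replicate 1 and -0.09 in replicate 2. Glycolysis and hypoxia genes gave 2 lower of 22 (9.09%, near the 10.5% of all genes tested), Car9 and Ndrg1. For DNA replication and mitosis 4 of 28 (14.3%) were higher, Ccne1, Cdc20, Foxm1 and Mcm7, and 1 (3.57%), Pcna, was lower, against 11.2% and 10.5% of all genes tested. Mki67, a marker of dividing cells, had 4.52 and 3.96 in CD45-negative and 3.41 and 3.46 in CD45-positive replicates and did not pass (adjusted p = 0.109). Among 22 immediate early and dissociation genes Atf3 and Junb were lower and Fosl1 higher. Atf3, an immediate early factor also induced in activated macrophages, had -2.45 and -0.39 against 4.50 and 4.68, while Fos, Egr1 and Jun did not pass, with differences of -0.34 and -0.65 for Fos, 1.00 and 0.65 for Egr1 and -1.14 and -0.01 for Jun. These genes also respond to enzymatic digestion, which differed between the populations, and its part was not tested. Another tested probe of Ccne1 and Foxm1 did not pass.

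Interferon-induced genes passed in both directions, 6 higher and 6 lower of 26. Higher were Mx2 (-0.09 and -0.70 in CD45-negative and -2.41 and -2.57 in CD45-positive replicates), Usp18, Oasl2, Isg15, Ifit1 and Gbp2. Lower were Psmb9 (-0.86 and -1.27 against 2.32 and 2.23), Psmb8 and Tap1, which prepare peptides for MHC class I, with Bst2, Oas1a and Oas3. For Oas3 the sign turned with normexp correction. For Isg15, a further probe did not pass.

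**Figure D5:**
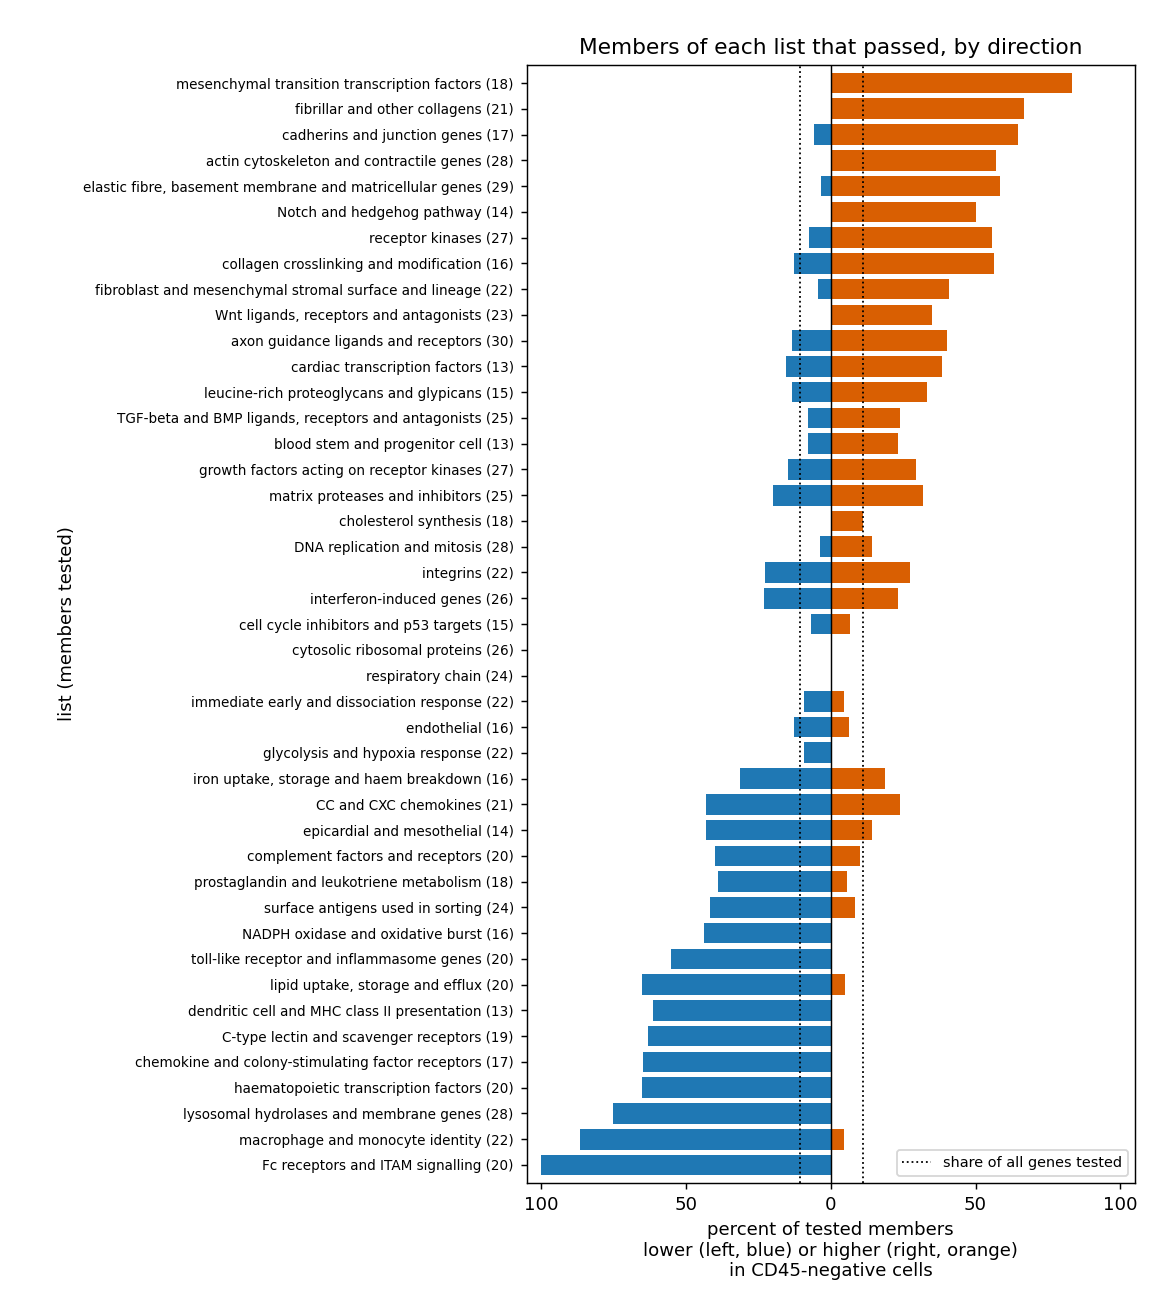
Percent of the tested members of each list that were higher (right) or lower (left) in CD45-negative cells, for lists with at least 13 genes tested, with dotted lines at the 11.2% and 10.5% of all genes tested. Mesenchymal transcription factors lie at the top and Fc receptor genes at the bottom, while ribosomal and respiratory genes have no bar.

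The 2 CD45-negative replicates differed from each other beyond the leukocyte genes, which is described without a test since each is 1 array. Of 19118 tested genes well above background on both, 930 were higher in replicate 1 by at least 1 log2 unit and 1858 were higher in replicate 2. By at least 4 log2 units, 4 were higher in replicate 1 and 38 in replicate 2. Among CD45-positive replicates, 234 of 21324 genes differed by at least 1 unit and 0 by at least 4. The widest gaps in favour of replicate 2 were those of Serpinb2, an inhibitor of plasminogen activators, with -2.61 and 5.16 in CD45-negative and 1.22 and 1.26 in CD45-positive replicates, and of Cck, a peptide hormone, with -4.35 and 3.24 against -0.10 and -0.17. For both genes the CD45-negative replicates lay on opposite sides of the CD45-positive ones and no difference passed. In favour of replicate 1 stood the mitochondrial carriers Ucp3 (2.32 and -2.54 against 2.54 and 2.89) and Ucp2 (2.13 and -2.34 against 2.25 and 2.44), where replicate 1 was near the CD45-positive level and replicate 2 was far below it. Pdgfrl (4.43 and 0.12 against -1.47 and -1.71) and Rem1 (2.33 and -1.28 against -4.10 and -3.57) were above the CD45-positive level in both replicates, by unequal amounts, and of these Rem1 passed and Pdgfrl did not (adjusted p = 0.0785). Among genes at background in CD45-positive cells, the largest bounds were those of Ankrd7 (at least 31.9-fold higher) and Ccdc3 (at least 17.8-fold). Prokr2, a prokineticin receptor, was at least 16.4-fold higher, and Nppc, which encodes C-type natriuretic peptide, at least 12.7-fold.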

How the data were processed

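RNA of 8 samples was hybridised to 8 one-colour Agilent arrays of 1 slide. Per the file headers, the authors deposited scanner output with background-subtracted processed intensity for 62976 spots an array, and Agilent Feature Extraction 10.7 is named in the submitters' processing notes. The authors' deposited log2 value table, whose scaling is not stated, served as an alternative and ranks the spots of each array in the same order as the scanner files. Control spots and outlier spots were left out, log2 intensity was set against each array's 75th percentile, spots of a probe were averaged, and each of 35014 gene names was read from its brightest probe. Names were updated through RefSeq for 2878 probes.

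Genes well above background in both replicates of at least 1 of the CD45-negative and CD45-positive groups, 21638 in all, were tested with limma 3.58.1 in R 4.3.3, in 1 fit over the 8 arrays with 4 groups and empirical Bayes moderation, p-values adjusted by the Benjamini-Hochberg method over these genes. A call needed an adjusted p under 0.05 and a difference of at least 1 log2 unit. The code was tested on simulated data in which each gene had the same spread in all groups, unlike these data. There 50 of 100 genes changed by 2 log2 units passed, and 82 of 100 changed by 4. Of 21394 unchanged genes 5 passed. A gene that did not pass may therefore still differ. With 2 arrays a group the number of arrays limits the precision, and an exact permutation test of 2 against 2 cannot go below 0.333. Members, gene lists, pairs and motifs were chosen with earlier results of these data known. Named genes are the markers, the rule's extremes of each ranking, and up to 6 passing members per direction of each list with defining markers. Genes whose promoters are shown, and the non-passing genes given as contrasts, were picked with their values known. Alternatives covered normalization, background correction, filters, probe choice, arrays in the fit, moderation and thresholds. Some items are not reported here.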

Additional observations from a re-analysis of the deposited data

How the results depend on the processing

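The counts of 2431 higher and 2277 lower genes stayed within 1.5 times of these values under the other normalizations, background correction, filters, probe rules and moderation tried, except for 3 choices. With the 4 arrays fitted alone there were 901 higher and 1081 lower genes, with an adjusted p under 0.01 there were 919 and 1010, and leaving out 1 array gave 330 to 3440 higher and 474 to 2846 lower genes, lowest without CD45-positive replicate 2. Scaling moved the median difference of all genes tested, 0.17 here, to 0.04 with the percentile over probes well above background and to 0.32 with normexp. Deviations of same-numbered CD45-negative and CD45-positive arrays correlated at -0.196, where other pairs of groups gave -0.0988 to 0.193. With 2 arrays a group this cannot settle whether replicate numbers pair the samples, and the labels do not say. With the replicate number as a block 2239 genes were higher and 2139 lower. The choices made after seeing the data, the crossed pairing (2115 and 1931) and a prior from the tested genes alone (2706 and 2535), gave similar counts. With the lowest single spot as floor, also chosen after seeing the data, lower bounds were 1.02 to 1.28 times smaller. The median of the respiratory chain genes, 0.03 here, had the other sign under 6 alternatives. Medians of some lists with lower genes also turned, under 1 alternative each. These included the chemokine and colony-stimulating factor receptors (-3.19 here, up to 0.26), the epicardial and mesothelial genes (-1.72, up to 0.77) and the eicosanoid genes (-0.84, up to 0.36).

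Signs of single differences turned as follows, mostly for genes that did not pass, and the cause was not tested. With quantile normalization it turned for Cd81 (-0.0642), and with the percentile over probes well above background for Mmp14 (-0.00242) and Serpinb2 (-0.0936). With normexp it turned for Cck (0.21), Cd2 (0.19), Cd81 (-0.0148), Gaa (-0.00348), Hoxb6 (0.55), Hoxb7 (0.17), Il1rl1 (0.31), Kit (0.64), Mcpt4 (0.77), Mmp14 (-0.0487), Myh6 (0.69), Oas3 (0.0837), Pecam1 (0.27), Slc18a2 (0.20), Sox10 (0.29) and Tgfbr2 (-0.0224). With the authors' value table it turned for Cck (0.0469), Cd81 (-0.0779), Gaa (-0.00442) and Kit (0.0167), and with the mean over probes for Cd44 (-0.31), Gaa (-0.93), Il1rl1 (0.48), Itgam (-1.52), Kdr (-2.16), Slc18a2 (0.17) and Synpo2 (-0.23). Leaving out 1 array turned the sign of some genes, given with their range over the arrays left out. Without CD45-negative replicate 1 it turned for Cck (-4.22 to 3.37), Cd34 (-0.19 to 1.36), Cd63 (-0.30 to 0.0280), Cd81 (-0.00115 to 0.34), H2-Ab1 (-1.78 to 0.15), Kit (-2.89 to 1.90), Pecam1 (-0.45 to 0.0602), Runx1 (-0.72 to 0.33), Tgfbr2 (-0.42 to 0.67) and Wt1 (-0.65 to 2.20), and without replicate 2 for Cd47 (-0.49 to 0.12), Cd9 (-0.33 to 0.27), Csf3r (-0.13 to 0.66), Mmp14 (-0.45 to 0.70), Myd88 (-0.45 to 0.15), Ptgs1 (-0.45 to 1.45) and Serpinb2 (-3.85 to 3.92). Without CD45-positive replicate 1 it turned for Hmox1 (-2.89 to 0.48). Of these genes Cd2, Hoxb6, Hoxb7, Il1rl1, Itgam, Oas3, Slc18a2 and Synpo2 had passed. Dim probes, those not well above background, limit what can be said of the lowest levels.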

Other observations

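Of 11 tested Schwann cell and neural crest genes, Ncam1, an adhesion molecule also found on heart muscle and mesenchyme, was higher (3.45 and 2.90 in CD45-negative and 1.02 and 0.84 in CD45-positive replicates) and 3 were lower. The shares were 9.09% higher and 27.3% lower, against 11.2% and 10.5% of all genes tested. For Ncam1, a further probe did not pass. Mbp, named for the myelin sheath but transcribed from a locus that leukocytes also use, had -2.75 and -0.53 against 3.22 and 3.19. Ngfr had -2.72 and -3.32 against -1.06 and -0.91, and L1cam was at least 3.07-fold lower. The Schwann cell genes Sox10 and S100b did not pass, with differences from the CD45-positive mean of -0.45 and -0.18 in replicates 1 and 2 for Sox10 and 0.52 and 0.24 for S100b.

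Of 9 Hox genes tested, which record position along the body axis, Hoxa3 (-1.30 and -3.54 in CD45-negative and -5.38 and -5.27 in CD45-positive replicates) and Hoxb2 (-1.39 and -1.01 against -2.51 and -2.95) were higher. Hoxb7 (-4.34 and -5.14 against -3.00 and -3.06) and Hoxb6 (-5.30 and -5.96 against -4.43 and -4.27, not well above background in CD45-negative cells) were lower, although the sign of both turned with normexp correction. Of 11 tested imprinted growth genes, Grb10 (-0.18 and -0.18 against -1.69 and -1.77) and H19 (2.01 and 1.62 against -0.36 and -0.05) were higher and 0 lower. The share higher was 18.2%, against 11.2% of all genes tested. For H19, 5 of its 7 probes did not pass. Of 15 cell cycle inhibitor and p53 target genes, Cdkn2b was higher (3.28 and 3.11 against 1.81 and 1.85) and Gadd45a lower (1.97 and 1.93 against 3.57 and 3.57). That is 6.67% in each direction, below the 11.2% higher and 10.5% lower of all genes tested. For Cdkn2b, a further probe did not pass. Of 7 tested genes of T, B and natural killer cells, Nkg7 (0.78 and 1.14 against 2.00 and 2.10) and Cd2 were lower, and Cd2 was not well above background in CD45-negative cells and changed sign with normexp correction.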
